A study of Mus musculus with 16 samples.

Results

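The 8 genes described here build the microtubules of young neurons. Tubb3, Tubb2a and Tubb2b encode beta-tubulins, and Dcx, Dclk1, Map1b, Map2 and Mapt encode proteins that bind to the microtubule wall. They were matched by gene symbol in the annotation of a mouse Affymetrix expression array, which gave 8 of the 18193 genes measured and 28 of the 34945 probe sets that name a single gene. A probe set is a group of short probes against one stretch of a transcript, and the brightest probe set of each gene, by its mean over the 16 arrays, stands for the gene unless another is named. Each array measured total RNA from a mouse embryo at embryonic day 9.5 (E9.5, 6 arrays), 11.5 (E11.5, 4 arrays) or 13.5 (E13.5, 6 arrays). The sample titles say head, the series title speaks of brain, and the source label says only embryonic tissue. The labels name no strain, genotype or treatment, and age and the labelling kit are the differences between the groups that they state. RNA of all 3 groups was extracted with the RNeasy Lipid Tissue Mini kit. The E9.5 and E11.5 RNA was labelled with a one-cycle kit from Affymetrix and the E13.5 RNA with the MessageAmp II-Biotin Enhanced kit from Ambion, so in every comparison with E13.5 the age and the labelling kit cannot be told apart.

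Microtubules are hollow polymers of alpha- and beta-tubulin. When a newborn neuron leaves the ventricular zone it grows an axon and dendrites, and it switches on beta-tubulin isotypes and binding proteins that stabilise, bundle and space these polymers. Tubb3 is a classic marker of that switch, Dcx and its relative Dclk1 are needed for neuronal migration, Map1b is prominent in growing axons, Map2 settles in dendrites and Mapt, the tau gene, in axons. At the earliest of these stages the neural tube holds mostly dividing progenitors, and neurons accumulate over the days that follow. In whole tissue, a change in the share of cells of a type and a change of RNA per cell cannot be told apart.

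The stretches just before the transcription start are shown for Map1b, Tubb3 and Tubb2a, because their windows lie wholly outside the gene, so that the run holds only bases before the start. RefSeq windows were matched for 6 of the 8 genes. Each run below holds the 250 bases before the start, read 5′ to 3′ on the gene's strand of GRCm38.p6. Capitals mark 3 short motifs on either strand, the TATA box TATAAA, the CCAAT box CCAAT and the GC box GGGCGG.
Map1b, chr13:99516603-99516852, minus strand: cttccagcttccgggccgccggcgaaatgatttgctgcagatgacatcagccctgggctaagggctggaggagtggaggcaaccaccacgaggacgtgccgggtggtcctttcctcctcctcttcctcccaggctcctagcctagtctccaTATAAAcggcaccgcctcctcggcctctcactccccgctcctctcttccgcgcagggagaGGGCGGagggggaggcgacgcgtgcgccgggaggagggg
Tubb3, chr8:123411303-123411552, plus strand: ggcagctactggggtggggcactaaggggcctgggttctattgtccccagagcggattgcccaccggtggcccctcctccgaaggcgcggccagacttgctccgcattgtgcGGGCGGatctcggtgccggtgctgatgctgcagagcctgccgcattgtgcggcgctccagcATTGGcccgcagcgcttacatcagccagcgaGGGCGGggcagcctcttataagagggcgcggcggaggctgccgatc
Tubb2a, chr13:34078009-34078258, minus strand: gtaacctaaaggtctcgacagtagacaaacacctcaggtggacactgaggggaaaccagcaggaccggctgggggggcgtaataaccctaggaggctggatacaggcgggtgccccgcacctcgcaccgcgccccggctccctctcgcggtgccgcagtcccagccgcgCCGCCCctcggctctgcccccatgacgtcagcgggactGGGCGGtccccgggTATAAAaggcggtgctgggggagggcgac
The 3 stretches are rich in G and C, at 66.4% for Map1b, 68.0% for Tubb3 and 68.4% for Tubb2a, against a median of 52.4% over all 32817 RefSeq windows of this length. They hold 19, 21 and 22 CG pairs in that order of genes, against a median of 6. A TATAAA lies at position -29 from the start in Tubb2a and at -99 in Map1b, and these letters are not in the Tubb3 window. Of all windows, 12.4% hold TATAAA. Tubb3 has a CCAAT at -77, a motif that 33.8% of all windows hold. Each of the 3 windows has a GGGCGG, the nearest at -39 in Map1b, -46 in Tubb3 and -43 in Tubb2a, as do 32.7% of all windows. These matches describe letters, and no binding was measured.

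The median probe set read 32 intensity units on every array and the lower quartile read 12, which are 5 and 3.585 on the log2 scale used from here on. All 8 genes lay above that lower quartile at every stage. Defining markers of neural tissue were present throughout: Sox2, a transcription factor of neural progenitors, averaged 11.03 ± 0.09 at E9.5, 10.95 ± 0.17 at E11.5 and 9.91 ± 0.14 at E13.5 (SD, n = 6, 4 and 6), and Ina, a neuronal intermediate filament, averaged 7.75 ± 0.40, 10.19 ± 0.12 and 11.58 ± 0.087 at the same stages. Some control probe sets also moved between stages. Spiked-in poly-A RNAs averaged 8.12, 5.67 and 5.4 at E9.5, E11.5 and E13.5, and 18S ribosomal RNA averaged 7.25, 10.19 and 10.74. The excess of 3′ over 5′ signal of transferrin receptor, a measure of how far the labelled RNA reaches, averaged 2.48, 3.15 and 1.53 log2 units. That of Gapdh averaged 0.18, 0.14 and 0.04, and that of beta-actin 0.82, 0.56 and 0.47. The part of these shifts in the results that follow was not tested.

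Between E9.5 and E11.5 all 8 genes rose. By limma with Benjamini-Hochberg adjustment over all genes, 8 of 8 were called higher at an adjusted p under 0.05, where 31% of all genes were called higher, and every E11.5 array lay above every E9.5 array for each of the 8, which held for 19.9% of all genes. The median of the 8 differences was 1.82 log2 units, against 0.02 over all genes. The microtubule-binding proteins led: Dcx was 25.3-fold higher, the third largest rise among the 18193 genes, and Map2, Map1b and Mapt were 8.87-fold, 6.93-fold and 4.81-fold higher, at ranks 33, 57 and 121. The Map1b call ended on its second probe set, at -0.01 log2 units (adjusted p = 0.960), which left 7 of 8 called with the second-brightest probe sets. The tubulins and Dclk1 rose less, between 2.19-fold for Tubb2b and 2.60-fold for Tubb2a.

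**Figure D1:**
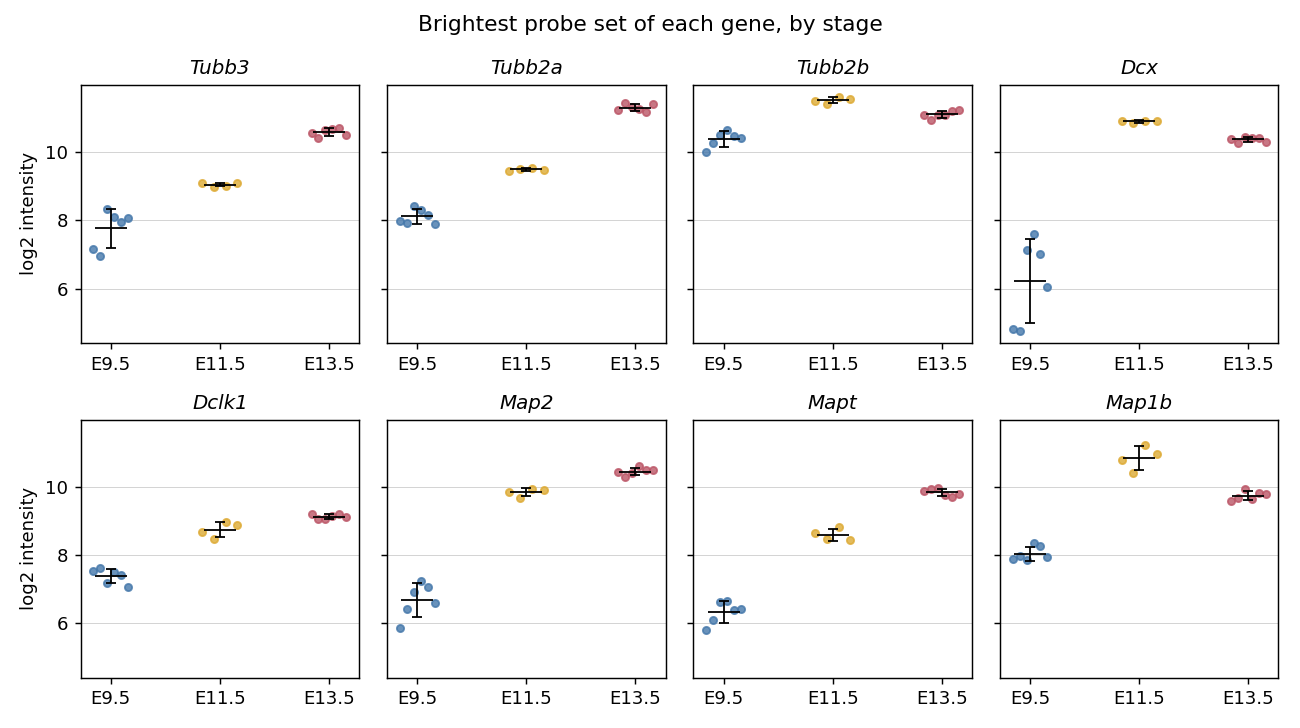
Log2 intensity of the brightest probe set of each of the 8 genes on every array, by stage (points are arrays, long bars are stage means and error bars are SD). All 8 genes stand higher at E11.5 than at E9.5, while Tubb2b, Dcx and Map1b stand lower on every E13.5 array than on every E11.5 array.

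Between E11.5 and E13.5 the brightest probe sets of the 8 genes parted. Tubb2a, Tubb3, Mapt, Map2 and Dclk1 were called higher at E13.5, 5 of 8 where 27.9% of all genes were called higher, and Map1b and Tubb2b were called lower, 2 of 8 where 27% of all genes were. Dcx was not called. With the second-brightest probe sets, where a gene has one, 7 were called higher and 1 lower, since Map1b and Dcx were then higher at E13.5. With the brightest, the 2 stages did not overlap for any of the 8: the 5 genes had all E13.5 arrays above all E11.5 arrays, as 22.3% of all genes did, and Map1b, Tubb2b and Dcx had them below, as 20.7% of all genes did. The median difference was 0.49 log2 units, against 0.0001 over all genes. Over the whole span, 8 of 8 were called higher at E13.5 than at E9.5, where 32.7% of all genes were, again with every E13.5 array above every E9.5 array, as 23.9% of all genes had, and with a median difference of 3.00 log2 units against 0.01 over all genes. These 3 comparisons share arrays and are not separate evidence of one another.

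Tubb3 encodes the beta-tubulin isotype found in neurons from soon after their last division. Its probe set 1415978_at gave a lowest, median and highest log2 level of 6.95, 8.0 and 8.33 on the 6 E9.5 arrays, 9.08, 8.98, 9.01 and 9.09 on the 4 E11.5 arrays, and a lowest, median and highest level of 10.39, 10.59 and 10.68 on the 6 E13.5 arrays. The stages stood in steps without overlap, and the E9.5 arrays were spread over more than a log2 unit. The difference was 1.28 ± 0.20 log2 units for E11.5 minus E9.5 (SE, adjusted p = 1.1e-05) and 1.53 ± 0.20 for E13.5 minus E11.5 (adjusted p = 1.3e-06), 7.02-fold in all. Tubb3 lies on chromosome 8 (123411553-123422015, GRCm38.p6) and has a single probe set.

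Tubb2a and Tubb2b encode closely similar beta-tubulins from neighbouring genes on chromosome 13 (Tubb2a at 34074278-34078008 and Tubb2b at 34127008-34130354). Tubb2a, probe set 1427347_s_at, read 7.89 at the lowest, 8.06 at the median and 8.43 at the highest at E9.5, then 9.44, 9.50, 9.53 and 9.48 at E11.5, and 11.15, 11.28 and 11.42 at the lowest, median and highest at E13.5. It climbed at each step, by 1.38 ± 0.099 log2 units for E11.5 minus E9.5 (adjusted p = 3.5e-10) and by 1.81 ± 0.099 for E13.5 minus E11.5 (adjusted p = 6.8e-12), and the second difference, 3.49-fold, ranked 222 among all genes. Its second probe set, 1427838_at, averaged 4.88, 6.57 and 7.04 at E9.5, E11.5 and E13.5, with a second step of 0.47 ± 0.14.

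Tubb2b, whose loss disturbs neuronal migration and cortical layering, peaked at E11.5. Probe set 1452679_at read 9.99, 10.43 and 10.64 at the lowest, median and highest at E9.5, then 11.47, 11.41, 11.61 and 11.54 at E11.5, and 10.94, 11.08 and 11.22 at E13.5. The E13.5 arrays lay between the other 2 stages without touching either. The differences were 1.13 ± 0.10 for E11.5 minus E9.5 (adjusted p = 1.1e-08) and -0.41 ± 0.10 for E13.5 minus E11.5 (adjusted p = 0.00211). An additional probe set, 1449682_s_at, is annotated to Tubb2b and a Tubb2a pseudogene together, was left out of the fit, and averaged 9.78 ± 0.17, 10.40 ± 0.21 and 10.44 ± 0.11, with no fall at E13.5. Signal of genes this alike cannot be told apart here, so the levels of Tubb2a and Tubb2b are uncertain to that extent.

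Dcx encodes doublecortin, which stabilises microtubules in migrating neurons and lies on chromosome X (143855842-143933396). Its brightest probe set, 1418141_at, gave 4.75, 6.53 and 7.60 as the lowest, median and highest level at E9.5, then 10.90, 10.84, 10.91 and 10.89 at E11.5, and 10.26, 10.39 and 10.44 at E13.5. The E9.5 arrays were the most scattered of any member, with an SD of 1.23, while the E11.5 arrays had an SD of 0.031. The difference was 4.66 ± 0.40 log2 units for E11.5 minus E9.5 (adjusted p = 5.8e-09). For E13.5 minus E11.5 it was -0.52 ± 0.40 and missed the threshold (adjusted p = 0.292), with an SE that carries the E9.5 scatter. In a fit of the E13.5 and E11.5 arrays alone the same difference had an adjusted p of 8.2e-06.

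Dclk1 encodes a doublecortin-like kinase that pairs a microtubule-binding part with a protein kinase, and it lies on chromosome 3 (55242303-55539068). Probe set 1436659_at read 7.07, 7.45 and 7.62 at the lowest, median and highest at E9.5, then 8.67, 8.47, 8.96 and 8.86 at E11.5, and 9.04, 9.12 and 9.19 at E13.5. Both steps were upward and the second was small, 1.36 ± 0.11 for E11.5 minus E9.5 (adjusted p = 1.9e-09) and 0.38 ± 0.11 for E13.5 minus E11.5 (adjusted p = 0.00621). Of its 9 probe sets, 8 were called higher at E11.5 than at E9.5 and 8 at E13.5 than at E11.5, and none was called lower. The one called in neither step, 1451917_a_at, averaged 3.46 over the arrays, under the lower quartile. The largest first step was that of 1435940_at, which averaged 4.65, 7.12 and 8.34 at E9.5, E11.5 and E13.5. The largest second step was that of 1451289_at, 1.54 ± 0.094 log2 units.

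Map2 encodes the microtubule-associated protein that later marks dendrites, and lies on chromosome 1 (66175202-66442583). Probe set 1434194_at gave 5.86, 6.76 and 7.23 as the lowest, median and highest level at E9.5, then 9.82, 9.67, 9.94 and 9.89 at E11.5, and 10.28, 10.45 and 10.61 at E13.5. Most of the rise came early: 3.15 ± 0.18 log2 units for E11.5 minus E9.5 (adjusted p = 1.6e-11) against 0.61 ± 0.18 for E13.5 minus E11.5 (adjusted p = 0.00735). At E13.5 the sample titles carry the prefix B62 or B63, with 3 arrays each, and what the prefixes stand for is not given. Map2 was higher on every B63 array than on every B62 array, by 0.16 log2 units in the means, less than its second step. The prefixes overlapped for Dcx, Dclk1, Map1b, Tubb3, Tubb2a and Tubb2b. The share of all genes without such overlap was not counted.

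Mapt encodes tau, an axonal relative of Map2 with a similar microtubule-binding region, and lies on chromosome 11 (104229409-104332090). Probe set 1424719_a_at read 5.81, 6.4 and 6.66 at the lowest, median and highest at E9.5, then 8.64, 8.47, 8.82 and 8.45 at E11.5, and 9.70, 9.83 and 9.95 at E13.5. The stages did not overlap, and the steps were 2.27 ± 0.13 for E11.5 minus E9.5 (adjusted p = 2.4e-11) and 1.24 ± 0.13 for E13.5 minus E11.5 (adjusted p = 1.3e-07). All 4 Mapt probe sets were called higher at both steps. The rise was steepest on 1455028_at, which averaged 3.92, 6.12 and 9.53 at E9.5, E11.5 and E13.5 and so gained 3.41 ± 0.15 log2 units in the second step. Mapt was higher on every B62 array than on every B63 array, by 0.18 log2 units in the means, again with no share over all genes to set it against.

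Map1b encodes a microtubule-associated protein of growing axons and lies on chromosome 13 (99421464-99516602). Its brightest probe set, 1421851_at, read 7.85, 7.95 and 8.34 at the lowest, median and highest at E9.5, then 10.78, 10.39, 11.21 and 10.95 at E11.5, and 9.57, 9.72 and 9.92 at E13.5. Every E13.5 array lay below every E11.5 array and above every E9.5 array. The differences were 2.79 ± 0.13 for E11.5 minus E9.5 (adjusted p = 1.2e-12) and -1.11 ± 0.13 for E13.5 minus E11.5 (adjusted p = 5.1e-07).

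The second probe set of Map1b gave the opposite picture. 1450397_at averaged 7.14 ± 0.35 at E9.5, 7.13 ± 0.22 at E11.5 and 11.72 ± 0.067 at E13.5 (SD, n = 6, 4 and 6), so that it was 24.0-fold higher at E13.5 than at E11.5 (4.58 ± 0.14 log2 units, adjusted p = 1.8e-15) and did not pass the test between E11.5 and E9.5 (-0.01 ± 0.14, adjusted p = 0.960). Its 6 E13.5 arrays read between 11.60 and 11.80, and the 4 E11.5 arrays read 7.34, 6.89, 7.30 and 7.0. The means over the 16 arrays that set the order of the probe sets were close, 9.37 for 1421851_at and 8.86 for 1450397_at. No direction is therefore given for Map1b as a gene between E13.5 and E11.5. Between E13.5 and E9.5 both probe sets were higher at E13.5.

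**Figure D2:**
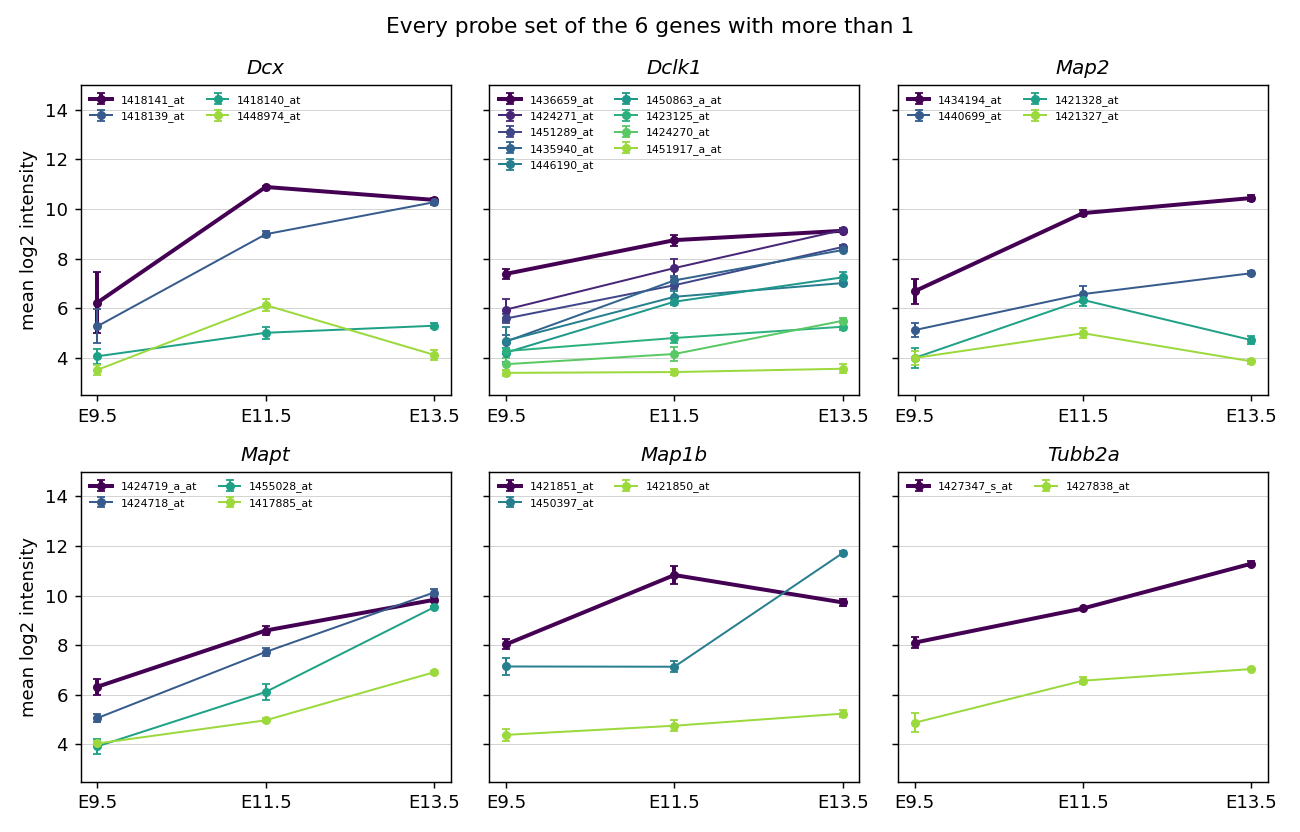
Mean log2 intensity by stage of every probe set of the 6 genes with more than 1, one panel per gene, with SD as error bars and the brightest probe set as the thick line. Lines of Map1b, Dcx and Map2 turn in opposite directions after E11.5, while those of Mapt run upward together.

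Probe sets of one gene also parted for Dcx and Map2. On Dcx, 1418139_at averaged 5.27, 8.98 and 10.27 at E9.5, E11.5 and E13.5 and kept climbing in the second step (1.29 ± 0.24, adjusted p = 1.0e-04), whereas the dim 1448974_at averaged 3.51, under the lower quartile, 6.12 and 4.12 and was called lower (-2.0 ± 0.13, adjusted p = 5.9e-11). On Map2, 1440699_at averaged 5.11, 6.57 and 7.41 and was called higher in the second step, whereas 1421328_at averaged 3.99, 6.33 and 4.71 and was called lower (-1.62 ± 0.17, adjusted p = 5.8e-08). The dim 1421327_at of Map2 was also called lower, by -1.13 ± 0.13, and lay near the lower quartile at E9.5 and E13.5. So 3 of the 6 genes with 2 or more probe sets had probe sets called in opposite directions for E13.5 minus E11.5, against 20.4% of the 9010 genes with 2 or more. Among genes with 3 or more probe sets it was 3 of 5 members, against 31.4% of genes. For E11.5 minus E9.5 it was 0 of 6, against 19.8%, and 0 of 5, against 30.3%. For E13.5 minus E9.5 it was 0 of 6 and 0 of 5, against 18.3% and 28.2%.

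Of the 28 probe sets, 26 were called higher and 0 lower at E11.5 than at E9.5. Over all probe sets the shares were 27.2% and 28%. Between E13.5 and E11.5, 20 were called higher and 5 lower at E13.5, where 25.9% and 28.4% of all probe sets were. Between E13.5 and E9.5, 26 were called higher and 0 lower, where 28.7% and 32.5% of all probe sets were. The highest stage mean was at E13.5 for 22 probe sets and at E11.5 for 6, and at E9.5 for none. The stage of the highest mean was not counted over all probe sets, so these counts have no share beside them.

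Exact permutation tests over arrays asked whether the brightest and second-brightest probe set of a gene changed by the same amount, in 18 tests adjusted together. The within-array difference of the Map1b probe sets changed by -5.69 log2 units between E13.5 and E11.5 and that of Dcx by -1.81 (both adjusted p = 0.00714), and that of Map2 by -0.23 (adjusted p = 0.227). Mapt and Dclk1 changed by -1.16 each and Tubb2a by 1.34 (adjusted p = 0.00714 for each of the 3). Of the 18 tests, 14 had an adjusted p under 0.05, so that the size of a step often rested on the probe set read, also where its direction did not.

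The brightest probe sets of related genes changed by unlike amounts. Probe sets of one gene did so too in 14 of the 18 tests above, so such tests cannot show that the genes themselves differ. For 3 pairs of relatives, the within-array difference of the brightest probe sets was compared between stages by two-sided exact permutation tests, 9 in all and adjusted together, of which 7 had an adjusted p under 0.05. Tubb2b minus Tubb2a averaged -0.19 ± 0.17 at E13.5, against 2.02 ± 0.08 at E11.5, a change of -2.22 log2 units (exact p = 0.00476, the smallest these group sizes allow, adjusted p = 0.00612). It was 2.27 ± 0.19 at E9.5, and for E11.5 minus E9.5 the change was -0.24 (exact p = 0.0571, adjusted p = 0.0643). Only the changes of such differences are meaningful, since the level of one probe set cannot be set against that of another.

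Dcx minus Dclk1 changed by 3.30 log2 units between E11.5 and E9.5, by -0.90 between E13.5 and E11.5 and by 2.40 between E13.5 and E9.5 (permutation, adjusted p = 0.00612 for each). The brightest Dcx probe set thus rose more than that of its relative at first. With the second-brightest probe sets the change between E13.5 and E11.5 was -0.24 and missed the threshold (permutation, adjusted p = 0.110). Map2 minus Mapt changed by 0.88 between E11.5 and E9.5 and by -0.63 between E13.5 and E11.5 (permutation, adjusted p = 0.00612 for each), and by 0.25 over the whole span (exact p = 0.0736). On the brightest probe sets Map2 gained more in the first interval and Mapt more in the second. With the second-brightest probe sets the first of these changes had the other sign, -1.21, and the last was -2.77. On the brightest, B62 minus B63 at E13.5 was -0.16 for Map2 and 0.18 for Mapt, with no overlap of arrays for either. The permutation treats the E13.5 arrays as independent, so p-values for Map2 minus Mapt in comparisons with E13.5 can be too small.

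The 2 steps were set against each other in the same limma fit, as the difference of E13.5 minus E11.5 less that of E11.5 minus E9.5. On the brightest probe sets the second step was smaller than the first for 6 of 8 genes, where 27% of all genes were called so, and larger for 1 of 8, where 26.3% were. With the second-brightest the counts were 4 and 1, and after averaging each gene's probe sets they were 4 and 0. Dcx had the widest gap, -5.18 ± 0.72 log2 units (adjusted p = 5.2e-06), followed by Map1b at -3.90 (4.59 on its second probe set), Map2 at -2.54, Tubb2b at -1.54, Mapt at -1.03 and Dclk1 at -0.98. The calls of Mapt and Dclk1 were lost on their second probe sets, at -0.27 (adjusted p = 0.232) and -0.14 (adjusted p = 0.750). Mapt was at 0.23 with the mean, and its 1455028_at and 1417885_at had larger second steps, by 1.22 and 1.0 log2 units (adjusted p = 5.5e-04 and 7.0e-06). Tubb2a was the one gene with a larger second step, by 0.43 ± 0.18 (adjusted p = 0.0472). That call was lost when any of 12 of the 16 single arrays was left out, with the title prefix as a block (adjusted p = 0.106), with quantile normalization (0.0673), with median centring (0.0604) and with array weights (0.0643), and the sign turned with the second probe set (-1.23). For Tubb3 the gap was 0.25 ± 0.35 and was not called (adjusted p = 0.578).

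**Figure D3:**
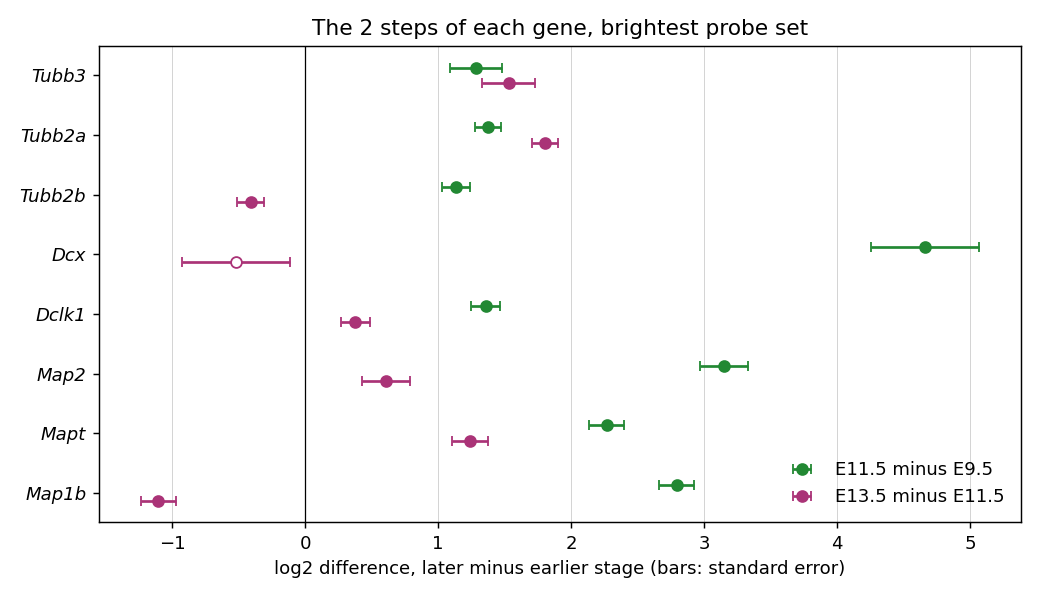
Log2 difference of each gene (horizontal axis) for E11.5 minus E9.5 and for E13.5 minus E11.5, brightest probe sets, with standard errors as bars and an open symbol where the gene was not called. Only Tubb3 and Tubb2a have the second step to the right of the first, and the second steps of Tubb2b, Dcx and Map1b lie below 0.

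Much of the E9.5 scatter lay in a pair of arrays. E9.5 samples 13 and 15 were the lowest 2 of the 6 for 5 of the 8 genes: Dcx, Map2, Mapt, Tubb3 and Tubb2b. The share of all genes that were lowest on these 2 arrays was not counted, so the pattern cannot be called particular to the 8. Dcx read 4.81 and 4.75 on them, against 6.04 to 7.60 on the other 4, and Tubb3 read 7.16 and 6.95, against 7.94 to 8.33. Dclk1 did the reverse on its brightest probe set, at 7.52 and 7.62 against 7.07 to 7.49. Its second probe set, 1424271_at, was lowest on samples 13 and 15, at 5.43 and 5.46 against 5.78 to 6.44. So was the second probe set of Map1b, 1450397_at, at 6.66 and 6.75 against 7.24 to 7.47. The count of genes thus rests on the probe set read.

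Summed over the 16 other pan-neuronal markers, the same arrays read 1501 and 1653 intensity units, against 1838 to 2821 on the other 4. Their neural progenitor markers summed to 8320 and 8507, against 8997 to 10528, and their surface ectoderm markers to 1868 and 1803, against 1124 to 1534. The part of these shifts in the scatter was not tested. Without both arrays all 8 genes were still called higher at E11.5 than at E9.5, Dcx by 3.94 and Tubb3 by 0.93 log2 units. The Dcx difference between E13.5 and E11.5 then passed the threshold (limma, adjusted p = 0.024). The second step of Tubb3 was then larger than its first by 0.60 log2 units (limma, adjusted p = 0.0028). The 2 arrays left out are those with low readings of these same genes, so these p-values are not a separate test. In the fit of all arrays the second Dcx probe set, 1418139_at, was higher at E13.5 than at E11.5 (1.29 ± 0.24).

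**Figure D4:**
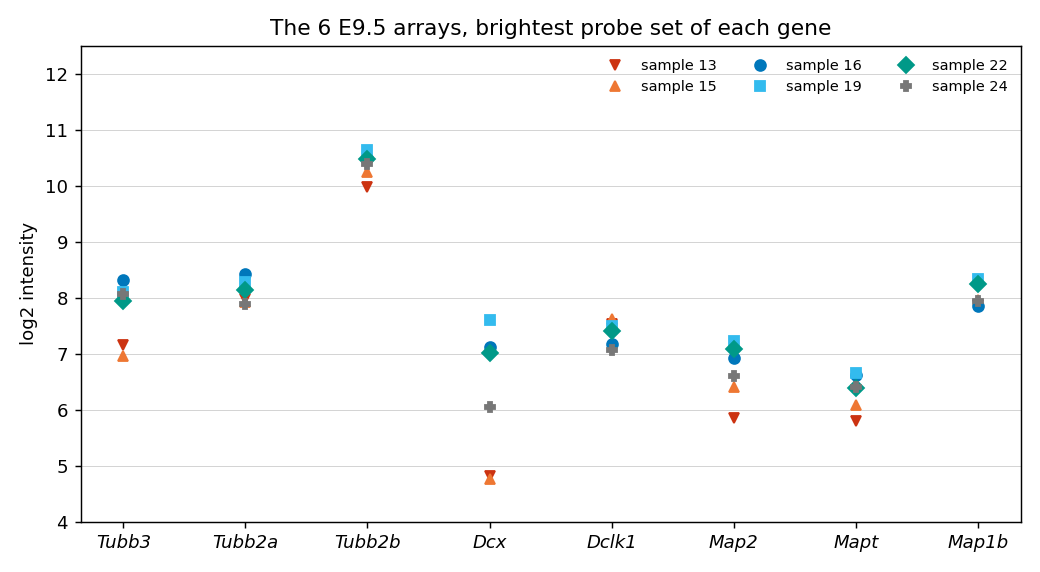
Log2 intensity of the brightest probe set of each gene on the 6 E9.5 arrays, one symbol per array. Samples 13 and 15 are the lowest 2 for Tubb3, Tubb2b, Dcx, Map2 and Mapt, and the highest 2 for Dclk1.

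The other genes of the microtubule system are given by list, and over all genes 31% were called higher and 26.9% lower at E11.5 than at E9.5, and 27.9% and 27% at E13.5 than at E11.5. Of 13 other tubulins measured, 4 were called higher, 5 lower and 4 neither at E11.5 than at E9.5, with a median of -0.03 log2 units, and again 4, 5 and 4 at E13.5 than at E11.5, with a median of 0.02, shares close to those over all genes. With the second-brightest probe sets 6 were called higher and 3 lower in the first step, and 1 and 5 in the second. Tubb4a, a beta-tubulin of the nervous system, was 1.5 ± 0.095 log2 units higher at E11.5 than at E9.5. Tubg1, a gamma-tubulin that nucleates microtubules at the centrosome, was lower by -1.28 ± 0.084. Tubb6, a broadly expressed beta-tubulin, differed by -1.36 in the first step and by 0.81 in the second. Tuba1a, the alpha-tubulin of young neurons, differed by 1.12 in the first step and by -0.36 in the second. It is named here because its course was among the closest to that of Tubb2b, so their like shape was set by that choice.

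Of 32 other microtubule-associated proteins, 21 were called higher and 4 lower at E11.5 than at E9.5 (median 0.41), and 19 higher and 8 lower at E13.5 than at E11.5 (median 0.39). With the second-brightest probe sets the first split was 12 higher and 10 lower. Crmp1, a collapsin response mediator of growing axons, was higher by 1.83 ± 0.12 log2 units at E11.5 than at E9.5, and its relative Dpysl3 by 1.57 ± 0.13 at E13.5 than at E11.5. Map1a, the relative of Map1b that is known from mature neurons, was lower by -1.16 ± 0.098 at E13.5 than at E11.5. Dst, a linker of the cytoskeleton found in sensory neurons, muscle and skin, was higher by 2.07 ± 0.10 at E13.5 than at E11.5.

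Among 29 genes for folding and modifying tubulin, 17 were called higher and 9 lower at E11.5 than at E9.5 (median 0.25), and 12 and 9 at E13.5 than at E11.5 (median 0.16). The first split was 11 and 9 on second-brightest probe sets, with a median of 0.0090. Agbl5, which trims the tails of tubulin, was higher by 1.65 ± 0.11 log2 units at E11.5, and Spast, the severing enzyme spastin, by 1.27 ± 0.086. Ttll1, an enzyme that adds glutamate chains to tubulin, was higher by 1.31 ± 0.12 at E13.5 than at E11.5, and Fignl1 was lower by -1.89 ± 0.096. Among 21 kinases and motor regulators, 15 were called higher and 3 lower in the first step (median 0.42), and 9 and 6 in the second (median 0.08), and with the second-brightest probe sets the first split was 9 and 8. Cdk5r1, the activator of the neuronal kinase Cdk5 that phosphorylates Dcx and tau, was higher in both, by 2.04 ± 0.13 and 1.43 ± 0.13. Gsk3b, a kinase of tau and Map1b, was higher by 2.16 ± 0.084 at E11.5 than at E9.5.

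**Figure D5:**
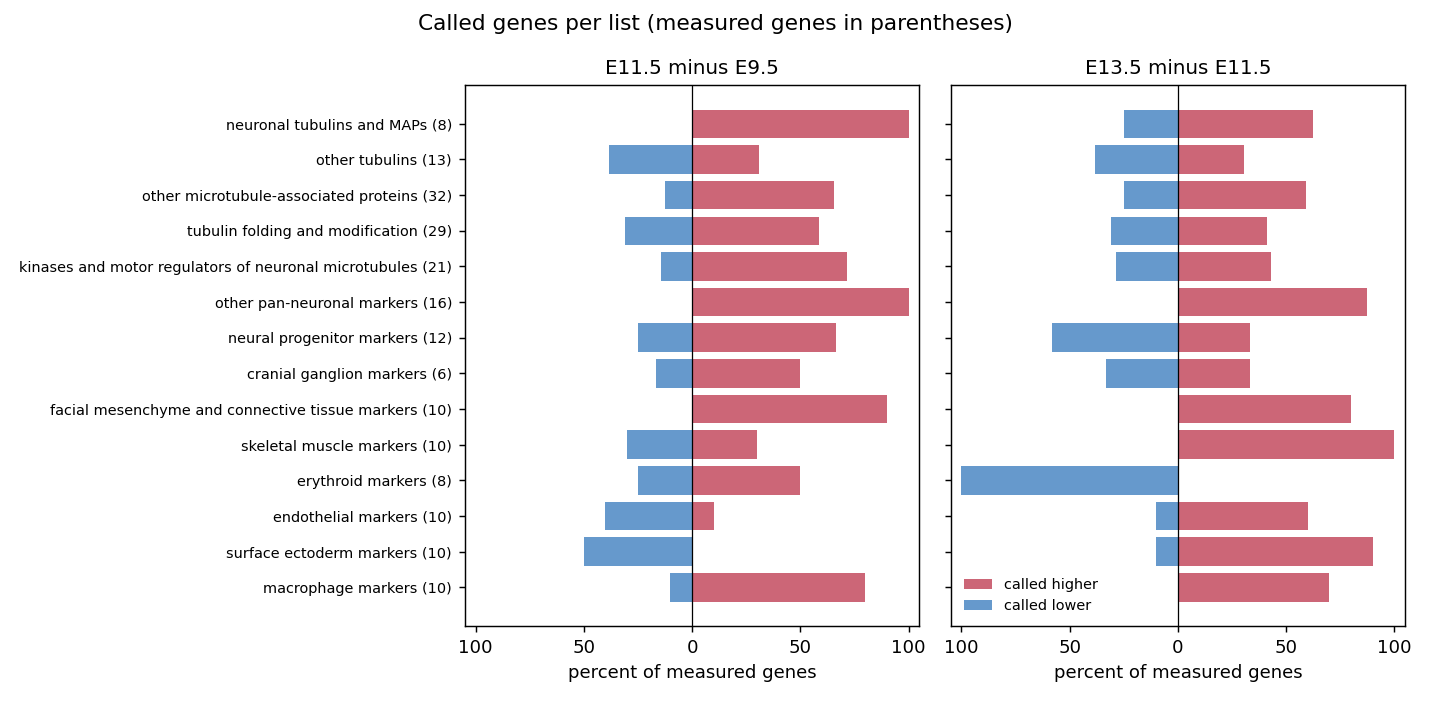
Share of the measured genes of each list called higher (bars to the right of 0) and lower (bars to the left), in percent, for E11.5 minus E9.5 and E13.5 minus E11.5, brightest probe sets. The 8 genes and the 16 other pan-neuronal markers, on their brightest probe sets, were all called higher in the first step, and in the second step 2 of the 8 genes and 0 of the 16 were called lower.

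The 8 genes were set beside markers of the cells a head holds. All 16 other pan-neuronal markers were called higher at E11.5 than at E9.5 (median 2.25), and 14 at E13.5 than at E11.5 with 0 lower (median 1.37). With their second-brightest probe sets 14 were called higher and 1 lower in the first step, and 10 and 1 in the second. Elavl4, a neuronal RNA-binding protein, was higher by 2.78 ± 0.19 log2 units in the first step and Rtn1, a reticulon of neurons, by 3.13 ± 0.18 in the second. Their summed intensity lay between 1501 and 2821 at E9.5, 8580 and 10191 at E11.5, and 21432 and 22623 at E13.5. The sum over the 8 genes lay between 1969 and 3132, 8648 and 10610, and 10830 and 11526. Such sums are weighted by the brightness of each probe set and are compared only between stages within a list. The sum of the 8 genes holds the probe sets of Map1b, Dcx and Tubb2b that were lower on every E13.5 array than on every E11.5 array. The second probe sets of Map1b and Dcx, which were higher at E13.5, are not in that sum.

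Markers of other cells moved between the same stages. Of 12 neural progenitor markers, 8 were called higher and 3 lower at E11.5 than at E9.5 (median 0.93). At E13.5 against E11.5, 4 were called higher and 7 lower, or 4 and 5 with the second-brightest probe sets. In that step Hes5, a target of Notch signalling, was lower by -2.21 ± 0.11 log2 units. Hes1 was higher by 0.90 ± 0.089 and Fabp7 by 1.02 ± 0.16. In the first step Hes5 was higher by 1.64 and Hes1 lower by -0.70. The sums of the 12 markers were 8320 to 10528 at E9.5, 14650 to 15479 at E11.5 and 14005 to 14705 at E13.5. Of the 6 cranial ganglion markers measured, 3 were called higher and 1 lower in the first step and 2 and 2 in the second, with sums of 399 to 594, 1062 to 1437 and 1100 to 1263.

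Markers of tissue outside the brain were also measured. The 10 markers of facial mesenchyme and connective tissue summed to 3856 to 5014 at E9.5, 9412 to 10101 at E11.5 and 26030 to 28792 at E13.5, with 9 and 8 called higher in the 2 steps and 0 lower. All 10 skeletal muscle markers were called higher at E13.5 than at E11.5 (median 4.88), with sums of 209 to 271, 205 to 221 and 5414 to 7600. The 8 erythroid markers, which report blood, summed to 26257 to 31034, 27800 to 39249 and 13880 to 17265, and all 8 were called lower in the second step. On second-brightest probe sets the second step had 8 higher and 1 lower for both the mesenchyme and the muscle markers, and again 8 lower for the erythroid ones. Myl1 was at or under the lower quartile at E9.5 and E11.5 and Myh3 at E9.5. The part of these shifts in the levels of the 8 genes was not tested.

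Surface ectoderm markers summed to 1124 to 1868, 690 to 795 and 1537 to 1658 at E9.5, E11.5 and E13.5, endothelial markers to 1406 to 1691, 1120 to 1228 and 1717 to 1944, and macrophage markers to 155 to 195, 517 to 591 and 810 to 1049. At E9.5 the macrophage markers Ptprc and Aif1 were at or under the lower quartile. Each of these lists holds 10 genes.

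The genes with the most similar course to each member were found by the root mean square difference over the 16 arrays, after each gene was centred on its own mean. Tubb2b was closest to Spag9, Ccdc8 and Tuba1a, at 0.108, 0.112 and 0.121 log2 units. Tubb2a was closest to Mfap4, Igfbp7 and Tagln3, at 0.140, 0.145 and 0.149, of which Tagln3 is a neuronal calponin relative and the other two are extracellular proteins. Tubb3 was closest to Cdkn1c, 6330403K07Rik and Smarcd3, at 0.188, 0.189 and 0.196.

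For Map2 the nearest were Nrn1, Add2 and Snap91, at 0.212, 0.216 and 0.235, and for Mapt Cadps, Pnmal2 and Nexmif, at 0.196, 0.221 and 0.229. Nrn1 is a surface protein of growing neurites, and Snap91 and Cadps work in synaptic vesicle traffic. Dclk1 was closest to Apc, a microtubule-binding tumour suppressor, at 0.135, followed by Sbk1 at 0.143 and Plppr2 at 0.149. Dcx had no gene this close: its nearest were Cacna2d1, Slc17a6 and Nefl, at 0.692, 0.747 and 0.775. Map1b was nearest to AI606473, Efhd2 and Afap1, at 0.220, 0.279 and 0.300. Among the 8 themselves the nearest pair was Tubb3 and Tubb2a, at 0.322, followed by Mapt with Tubb2a at 0.380 and Map2 with Mapt at 0.391. For 7 of the 8 genes all 3 named genes were closer than any other member, and for Dcx this held for Cacna2d1 alone, since Map2 lay at 0.742. The named genes were picked from all measured genes outside the 8, and the nearest member from only 7. The count is thus largely set by that choice and does not show how alike the 8 are.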

How the data were processed

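The 16 arrays hold 45101 probe sets, for which the submitters' processing notes name RMA. The authors deposited linear intensity values as whole numbers, and their log2 was taken here. A probe set was named from the platform's annotation table, with symbols checked against RefSeq (GRCm38.p6): 34945 named 1 gene, 932 several, and 9160 none, beside 64 controls. The 204 symbols that RefSeq did not match were kept as the file gives them. No source used here states the RMA settings or software version.

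Groups came from the sample titles. limma 3.58.1 in R 4.3.3 fitted a mean per stage over the 16 arrays, with Benjamini-Hochberg adjustment over 18193 genes (brightest probe set) or 34945 probe sets, and a call at an adjusted p under 0.05. The fit was run on simulated data with independent noise and a single spread per gene over all stages. That run checks the code and not the p-values of these data. Pairs were tested by two-sided exact permutation over arrays. The tests between probe sets of 1 gene were added after the values were seen. The submitters describe the samples of a stage as biological replicates, and p-values set a difference against the spread between these samples. With the title prefix as a block, E13.5 arrays of one prefix had a consensus correlation of 0.601 over genes, a measure of how alike they were. The main fit and the permutation tests treat the E13.5 arrays as independent. Their p-values for comparisons with E13.5 can therefore be too small. The number of arrays limits the precision.

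The 8 genes and all other lists were chosen with earlier results of these data known. Named genes were the 8, up to 2 called genes with the largest rise and fall per list and step, up to 2 brightest markers of a cell type, and the 3 nearest genes of each member. Ptprc, Aif1 and the dim markers were named for lying at or under the lower quartile, and Tubb2b's neighbour Tuba1a for its nearness. Alternatives were other normalizations, probe set summaries, variance settings, a filter on dim genes, fewer samples and the title prefix as a block.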

Additional observations from a re-analysis of the deposited data

Results flagged for a closer look

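Of 84 sets of arrays of one probe set and stage, 3 held an array whose gap to the nearest of the others was large for the range of its stage. Chance gives about 1 in 20, or 4.2 of 84. Dcx on 1418139_at read 10.06 on E13.5 sample B63E6K, below 10.28 to 10.36 on the other 5 E13.5 arrays. Map2 on 1421328_at read 4.39 on E13.5 sample B62E7K, below 4.70 to 4.86 on the others. Mapt on 1455028_at read 9.42 on the same sample, below 9.53 to 9.59 on the others. All 3 are under a log2 unit from the rest of their stage and smaller than the difference between E13.5 and E11.5 of the same probe set.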

How the results depend on the processing

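The choice of probe set moved these results most. With the mean of all probe sets, E13.5 minus E11.5 was 1.32 for Map1b and -0.33 for Map2, and with the second-brightest probe set it was 4.58 for Map1b and 1.29 for Dcx. The second-brightest gave -0.010 for Map1b in E11.5 minus E9.5. The second step less the first became 0.27 (mean) and 4.59 (second-brightest) for Map1b, 0.23 (mean) for Mapt, and -0.40 (mean) and -1.23 (second-brightest) for Tubb2a, and with the mean 4 genes were called, all lower, against 7. Tubb2b minus Tubb2a in E11.5 minus E9.5 passed the threshold at -0.25 with quantile normalization, -0.40 with the mean and -0.56 with the second-brightest, and ranged from -0.29 to -0.20 when single arrays or E9.5 samples 13 and 15 were left out. Map2 minus Mapt was -0.032 (mean) and -1.21 (second-brightest) in E11.5 minus E9.5 and -2.60 and -2.77 in E13.5 minus E9.5, where leaving out arrays gave 0.19 to 0.32, or 0.17 without both E9.5 samples 13 and 15. Dcx minus Dclk1 in E13.5 minus E11.5 was -0.24 with the second-brightest and missed the threshold. Leaving out arrays gave 8 genes called in E11.5 minus E9.5, 7 to 8 in E13.5 minus E11.5, 8 in E13.5 minus E9.5 and 6 to 8 for the second step less the first. No paired analysis was possible because the stages share no replicate numbers. The causes of these changes were not tested. Signal near the lower quartile at one stage or more limits 1451917_a_at and 1424270_at of Dclk1, 1421327_at and 1421328_at of Map2, 1448974_at and 1418140_at of Dcx, and 1455028_at and 1417885_at of Mapt, and the labelling kit cannot be told apart from E13.5.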
